A study of Mus musculus with 7 samples.

Results

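Gpr110, Cdh1, Zbtb7c, Sox9 and Mfap1b are 5 genes whose RNA was lower in the livers of old mice. Gpr110 and Cdh1 encode proteins of the cell membrane, and Zbtb7c, Sox9 and Mfap1b encode proteins of the nucleus. They are 5 of the 23366 gene rows of the files, and all 5 were among the 11251 genes with enough reads to test. They were chosen by their lower level at 21 months than at 3 months in these same 7 libraries, outside the major urinary protein and ribosomal genes, with no fixed threshold. Their difference between the ages is therefore given as a description, without a test.

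Liver RNA of C57BL/6 mice, an inbred laboratory strain, was sequenced at 21 months (3 samples) and at 3 months (4 samples). No treatment or genetic change is named in the labels, and whether each sample is a separate animal is not stated. The p-values therefore speak only of how much these samples vary, and part of that variation may be technical. Reads assigned to genes totalled 6882935 to 10458583 per library at 21 months and 4724687 to 11143125 at 3 months. Levels are given as CPM, read counts scaled to a common library total, and as TPM, which also divides by transcript length, where genes are compared with each other.

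E-cadherin, the product of Cdh1, joins neighbouring epithelial cells at adherens junctions, where its tail is held by catenins, and in mouse liver it is known from periportal hepatocytes and bile ducts. Gpr110, named Adgrf1 in RefSeq, is an adhesion G protein-coupled receptor, a class with long extracellular regions. Sox9 is a transcription factor that marks bile duct cells, Zbtb7c is a zinc finger protein with a BTB domain that acts on gene promoters, and Mfap1b is 1 of 2 mouse copies of a protein that, despite its microfibril name, is known from human cells as part of the spliceosomal B complex.

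In every one of the 5 genes the ages did not overlap. Of all tested genes, 12.9% had every 21-month library below every 3-month library. This share and the count of 5 are set side by side only, because the genes were chosen on this contrast. By the quasi-likelihood test of edgeR, 5.86% of all tested genes were called lower at 21 months (659 genes) and 5.47% higher (615 genes), at an adjusted p under 0.05. The higher genes made up 48.3% of calls, and 58.8% when 21-month replicate 2 was left out. With a measure of fragment length per library as a covariate, edgeR called 332 genes in place of 1274, and the library with the smallest value was 21-month replicate 3. The measure was 35.4, 30.9 and 21.4 bases at 21 months and 36.9, 38.8, 35.7 and 34.4 bases at 3 months, so it ran partly with age. The SE was larger with it for each of the 5 genes, as in Gpr110 (0.44 against 0.29). On log2(TPM + 0.1), where the median of all genes moved to 0.12, the higher genes made up 74.3% of calls. Ranked by log2 fold change from the lowest, Gpr110 stood 16th of 11251, Zbtb7c 19th, Cdh1 24th and Mfap1b 40th. Sox9 stood 315th, so the description of a strong fall holds less well for it than for the others. Without 21-month replicate 1, Cdh1 stood 47th, Zbtb7c 35th and Sox9 486th. Without 3-month replicate 3, Zbtb7c stood 29th and Sox9 212th. With no filter on low counts, when 16902 genes were ranked, Gpr110 stood 135th, Zbtb7c 299th, Cdh1 312th, Mfap1b 932nd and Sox9 1652nd. With a minimum of 5 CPM they stood 9th, 11th, 15th, 25th and 198th of 8936, in the same order of genes, and on log2(TPM + 1) Cdh1 stood 13th.

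**Figure D1:**
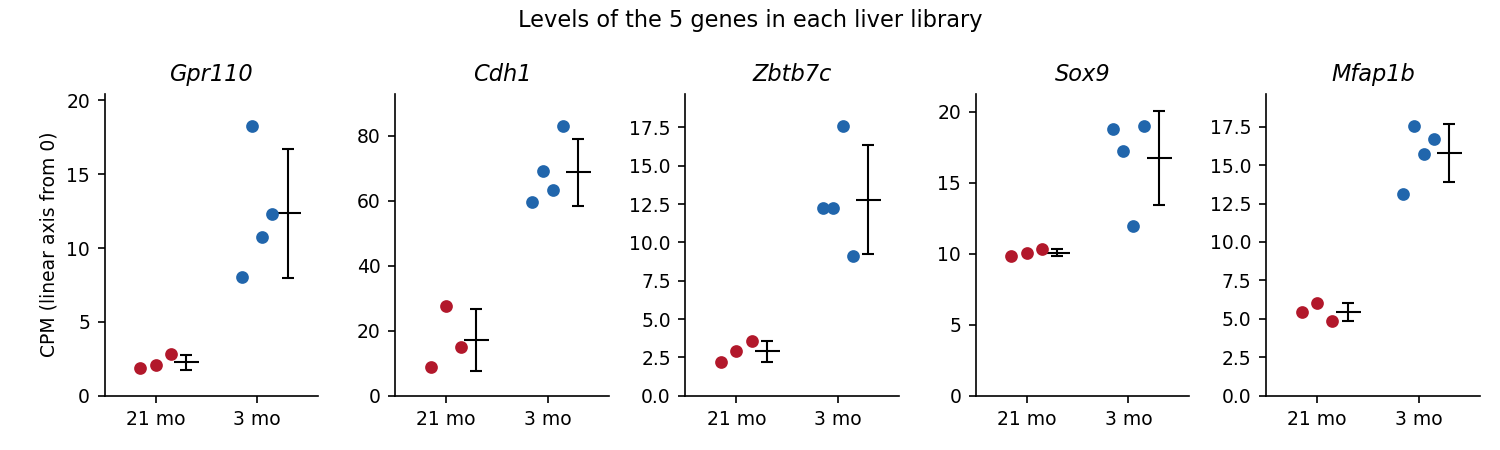
Level of each of the 5 genes in CPM (vertical axes, starting at 0) in each library, with 21 months to the left of 3 months, and the mean and SD beside the points. All 21-month points lie below all 3-month points in each panel, with the narrowest gap in Sox9 (1.15-fold) and the widest in Gpr110 (2.81-fold).

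**Figure D2:**
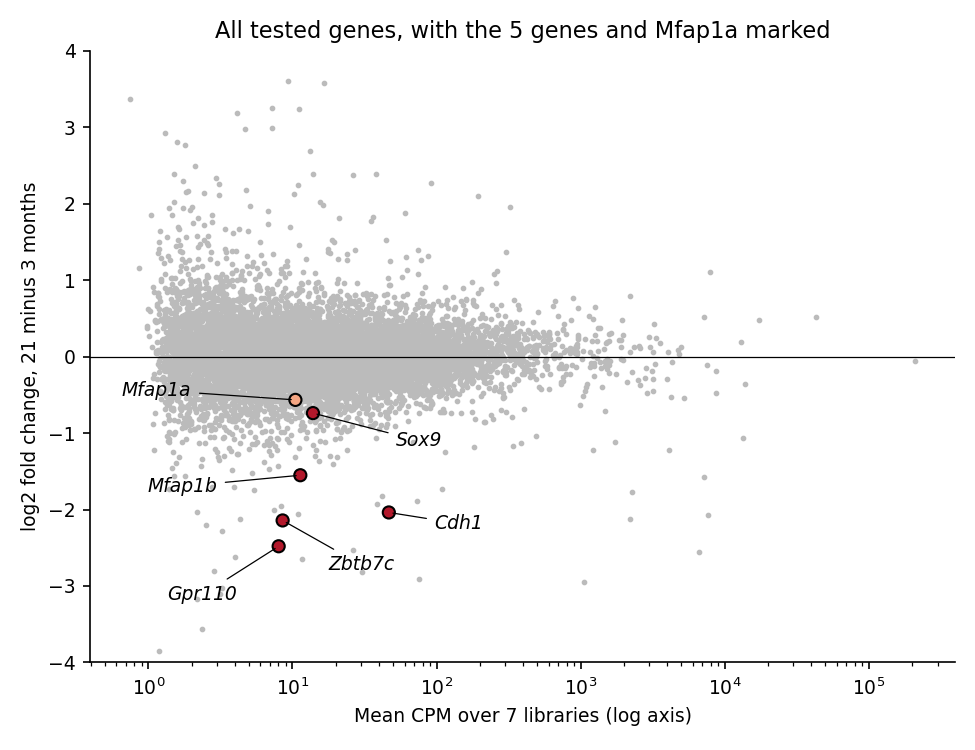
Log2 fold change (21 minus 3 months) against mean CPM over the 7 libraries (log axis) for the tested genes, with the 5 genes and Mfap1a marked; 9 genes beyond 4 in size on the vertical axis are not drawn. Gpr110, Zbtb7c and Cdh1 lie below -2, Mfap1b at -1.55 and Sox9 at -0.74.

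Gpr110 had 1.87, 2.09 and 2.85 CPM in 21-month livers, against 8.03, 18.3, 10.7 and 12.3 CPM in 3-month livers. The highest 3-month library was replicate 2, and the lowest 3-month library was still 2.81 times the highest 21-month library. The level was 2.27 ± 0.515 CPM at 21 months (SD, n = 3) and 12.3 ± 4.34 CPM at 3 months (SD, n = 4), which is 5.58-fold lower at 21 months (log2 fold change -2.48 ± 0.29, SE). These values rest on 19, 15 and 24 reads at 21 months and on 44, 213, 53 and 76 reads at 3 months. Its spread within an age, an SD of 0.41 on the log2 scale, was wider than that of 90.9% of 1905 genes of similar level. On log2(TPM + 1), which compresses low levels, the log2 fold change was -1.68.

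The window around the start of Gpr110 is shown because it is poor in CpG dinucleotides, unlike the windows of the Mfap1 copies below. It is chr17:43270097-43270396, plus strand, 300 bases running from 250 before to 50 after the annotated start in RefSeq, build GRCm38.p6. It holds 2 CpG, against a median of 7 over 32851 such windows, and 14.1% of windows hold fewer.
Gpr110: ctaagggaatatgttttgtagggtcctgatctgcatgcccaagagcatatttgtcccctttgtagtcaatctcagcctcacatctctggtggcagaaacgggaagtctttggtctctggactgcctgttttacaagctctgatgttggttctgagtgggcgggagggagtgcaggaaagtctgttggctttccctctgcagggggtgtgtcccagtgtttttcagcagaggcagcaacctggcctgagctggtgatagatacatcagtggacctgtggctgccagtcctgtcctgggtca

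No other adhesion receptor was called lower. Of 30 such genes listed, 28 had a row, 13 had enough reads to test, and 2 of these were higher at 21 months and 0 lower by edgeR. Without adjustment 2 were higher and 0 lower at p under 0.05, and DESeq2 and limma voom each gave 2 higher and 0 lower. Celsr1, a seven-pass cadherin of planar cell polarity, rose to 50.8, 62.6 and 61.5 CPM at 21 months, against 33.2, 39.5, 46.1 and 35.4 CPM at 3 months (log2 fold change 0.60 ± 0.12, edgeR adjusted p = 0.00713, or 0.124 with the fragment-length covariate). Gpr125 rose by 0.43 ± 0.13 (edgeR adjusted p = 0.0426). Leaving out 3-month replicate 1, 2 or 4, or leaving out replicate 3 of 21 months, ended that call, and 1 gene of the list then remained called. Gpr116, a receptor that controls lung surfactant and lies next to Gpr110 on the chromosome, differed by 0.01 ± 0.30 (edgeR adjusted p = 0.989). The median log2 fold change of the 13 genes was -0.06, against -0.0015 over all tested genes.

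Cdh1 had 8.97, 27.5 and 14.9 CPM in 21-month livers, against 59.7, 69.3, 63.3 and 83.1 CPM in 3-month livers. The 21-month libraries lay far apart, with replicate 2 at 3.07 times replicate 1, while the 3-month libraries spanned 1.39 times. The level was 17.1 ± 9.48 CPM at 21 months (SD, n = 3) and 68.8 ± 10.3 CPM at 3 months (SD, n = 4), or 4.11-fold lower at 21 months (log2 fold change -2.04 ± 0.37, SE). The spread within an age, 0.53 on the log2 scale, exceeded that of 98.9% of 1480 genes of similar level. Without 21-month replicate 2 the log2 fold change was -2.53, and without 21-month replicate 1 it was -1.72. In bulk tissue, fewer cells of a type and less RNA per cell cannot be told apart, for Cdh1 and for the other 4 genes.

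The libraries differed also in markers of other liver cells. The summed CPM of 15 endothelial markers was 243, 518 and 444 at 21 months and 449, 485, 440 and 308 at 3 months. For 14 Kupffer cell and macrophage markers with enough reads it was 257, 671 and 503 at 21 months and 391, 578, 414 and 376 at 3 months. Among the 21-month libraries, replicate 1 was lowest in both sums and in Cdh1, and replicate 2 was highest in both sums and in Cdh1. The 3-month libraries did not share this order, as replicate 4 was lowest in both sums (308 and 376) and highest in Cdh1 (83.1 CPM). The sums of the adipocyte, the B, T and NK cell and the hepatocyte marker lists separated the ages. For 9 adipocyte markers the summed CPM was 39.9, 33.9 and 38.6 at 21 months and 25.04, 12.7, 15.4 and 10.4 at 3 months. Of 4 tested, edgeR called Cidec and Pparg higher, and most of the difference in the sum lay in these genes. Cidec had 19.5 ± 5.09 CPM at 21 months (SD, n = 3) and 1.73 ± 1.40 CPM at 3 months (SD, n = 4). Pparg had 10.0 ± 1.15 and 6.18 ± 0.994 CPM. Fabp4 (log2 fold change -0.36 ± 0.27) and Cfd (1.23 ± 0.81) were not called, so the sum does not show a rise of the whole list. For 15 B, T and NK cell markers the summed CPM was 12.1, 48.1 and 14.2 at 21 months and 7.75, 6.82, 6.78 and 6.82 at 3 months. Of 3 tested, edgeR called Igj higher. That call was lost with limma voom (adjusted p = 0.110), with library size scaling, with no filter on low counts and with the fragment-length covariate. It was also lost on leaving out any 3-month library or 21-month replicate 1. Lyve1 of the endothelial list was called lower, and Dcn, 1 of 15 stellate cell and fibroblast markers, higher. The Lyve1 call was lost with library size scaling, with the fragment-length covariate (edgeR adjusted p = 0.402) and on both TPM scales. Leaving out 3-month replicate 2, or 21-month replicate 1 or 3, also ended it. The part of these cells in the levels of the 5 genes was not tested. Defining markers of hepatocytes were abundant in every library, with summed CPM of 109013 to 114432 at 21 months and 92901 to 104571 at 3 months. Of 17 tested, edgeR called Alb higher (log2 fold change 0.52 ± 0.14) and Apoa1, Fga and Fgg lower. With the fragment-length covariate none of them was called, but their log2 fold changes stayed near those of the main fit. They were 0.56 for Alb (0.52 in the main fit), -0.56 for Apoa1 (-0.54), -0.54 for Fga (-0.48) and -0.36 for Fgg (-0.40).

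Cdh2, or N-cadherin, is the other classical cadherin of hepatocytes, and its ages overlapped. It had 37.4, 42.4 and 42.6 TPM in 21-month livers, against 35.7, 37.9, 38.4 and 36.1 TPM in 3-month livers, and its log2 fold change was 0.01 ± 0.09 (edgeR adjusted p = 0.954). The ratio of Cdh1 to Cdh2 in TPM was 0.108, 0.319 and 0.170 at 21 months, against 0.695, 0.857, 0.765 and 0.928 at 3 months. Among the catenins, which link cadherins to actin, Ctnnb1 differed by 0.05 ± 0.09, Ctnnd1 by -0.01 ± 0.09 and Ctnna1 by -0.16 ± 0.09 on the log2 scale, and edgeR called none of the 3 (adjusted p = 0.284 for Ctnna1).

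Of the 26 tested genes of adherens junctions and desmosomes other than Cdh1, 2 were lower and 3 higher at 21 months by edgeR, with a median log2 fold change of 0.01. Pvrl2, a nectin, fell to 40.9, 41.2 and 40.2 CPM in 21-month livers, against 55.7, 57.1, 58.9 and 73.0 CPM in 3-month livers (log2 fold change -0.58 ± 0.11, edgeR adjusted p = 0.00459). Dsc2, a desmosomal cadherin, rose to 25.7, 35.9 and 33.7 CPM at 21 months, against 15.7, 17.0, 18.8 and 21.1 CPM at 3 months (log2 fold change 0.81 ± 0.14, edgeR adjusted p = 0.00268). Jup, or plakoglobin, and the nectin Pvrl3 were called higher, and the desmosome linker Dsp lower (log2 fold change -0.46 ± 0.14, edgeR adjusted p = 0.0459). The Dsp call was lost with library size scaling, limma voom, a minimum of 5 CPM and the fragment-length covariate. It was lost too with ribosomal RNA rows removed and on both TPM scales (limma adjusted p = 0.339 on log2(TPM + 0.1)). It was also lost on leaving out any 21-month library, or 3-month replicate 2 or 3. The count of 5 was 3 without 3-month replicate 1, 2 or 4 or 21-month replicate 2, and 2 without 21-month replicate 3. With the replicate number as a block, in which 3-month replicate 4 carries no age information, the edgeR adjusted p of Pvrl3 was 0.0756.

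Among 23 tested tight junction genes, 0 were lower and 1, Cldn2, was higher by edgeR (log2 fold change 0.40 ± 0.12, adjusted p = 0.0423), and the median was -0.07. Cldn2 forms a channel for cations and water. At an unadjusted p under 0.05 the counts were 2 lower and 2 higher, and DESeq2 and limma voom each called 0 lower and 1 higher. The call of Cldn2 was lost when any of the libraries except replicate 2 of 21 months was left out, and when the replicate number was a block (edgeR adjusted p = 0.0991).

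Of the factors known to repress Cdh1 through E-box sites, 6 of 11 had enough reads, and 0 were lower and 1 higher by edgeR. At an unadjusted p under 0.05 the counts were 1 lower and 1 higher, and DESeq2 and limma voom called 0 lower and 1 higher. Tcf4 rose to 18.1, 25.1 and 21.6 CPM in 21-month livers, against 12.2, 11.9, 11.1 and 11.04 CPM in 3-month livers (log2 fold change 0.89 ± 0.14, edgeR adjusted p = 0.00131), and it was called under all alternatives run. Zeb1 differed by -0.34 (edgeR adjusted p = 0.118), Snai2 by 0.03 and Zeb2 by 0.01. Snai1 had 22 reads over the 21-month libraries and 24 over the 3-month libraries, too few to test.

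Cdh1 is known from the periportal side of the lobule, so genes of both sides were read. Of 27 tested periportal genes, 0 were lower and 2 higher by edgeR, with a median of -0.0047. There were 4 lower and 5 higher at an unadjusted p under 0.05, DESeq2 called 2 lower and 4 higher, and limma voom 0 lower and 3 higher. With the replicate block, 5 periportal genes were called. The 2 were G6pc, the last enzyme of glucose release, at 0.56 ± 0.11 (edgeR adjusted p = 0.00583), and the protease Ctsc at 0.54 ± 0.11 (edgeR adjusted p = 0.00753). Of 28 pericentral genes, 1 was lower and 5 higher by edgeR, with a median of 0.03. The lower one was Rnf43, a Wnt inhibitor, whose edgeR adjusted p was 0.0572 with the replicate block. Cyp2c37, a drug-metabolising cytochrome P450, reached 465 ± 117 CPM at 21 months (SD, n = 3) and 181 ± 15.5 CPM at 3 months (SD, n = 4). The pericentral count was 4 without 3-month replicate 1, 2 or 3 or with the block, and 3 without 3-month replicate 4 or 21-month replicate 3.

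Sox9 had 9.82, 10.1 and 10.3 CPM in 21-month livers, against 18.8, 17.2, 11.9 and 19.0 CPM in 3-month livers. The 21-month libraries lay within 1.05 times of each other, and 3-month replicate 3 was only 1.15 times the highest of them. The level was 10.1 ± 0.264 CPM at 21 months (SD, n = 3) and 16.7 ± 3.30 CPM at 3 months (SD, n = 4), which is 1.67-fold lower at 21 months (log2 fold change -0.74 ± 0.16, SE). Of the 5 genes it had the smallest difference and the smallest spread at 21 months, with a coefficient of variation of 2.62%.

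Markers of bile ducts, where Sox9 is best known in adult liver, were read beside it, and none was called. Of 23 markers, 12 had enough reads to test, and edgeR called 0 lower and 0 higher. At an unadjusted p under 0.05 there were 1 lower and 1 higher, and DESeq2 and limma voom called 0. Without 21-month replicate 2, edgeR called 1. The summed CPM of all 23 was 92.8 to 110 at 21 months and 91.0 to 106 at 3 months, and those 12 had a median log2 fold change of -0.07. Krt19, the duct keratin, had 0.89, 0.84 and 1.19 CPM in 21-month livers, against 2.19, 1.89, 1.42 and 2.27 CPM in 3-month livers. The ages did not overlap in Krt19, but its log2 fold change of -0.99 ± 0.36 missed the threshold (edgeR adjusted p = 0.0899). Epcam, a surface protein of duct cells, differed by -0.69 ± 0.39 (edgeR adjusted p = 0.281). Spp1, or osteopontin, differed by -0.14 ± 0.15 (edgeR adjusted p = 0.577). Krt7, another duct keratin, had 20 reads in all at 21 months and 26 at 3 months and was not tested.

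Signalling pathways that act on Sox9 in liver were read next. Of 24 tested Notch pathway genes, edgeR called 1 lower and 0 higher, with a median of 0.06. The lower one was the receptor Notch3 at -1.05 ± 0.31 (edgeR adjusted p = 0.0419), with 1.77 ± 0.515 CPM at 21 months (SD, n = 3) and 3.67 ± 0.851 CPM at 3 months (SD, n = 4). Leaving out any of the 3-month replicates 1, 2 and 3, or either of the 21-month replicates 2 and 3, ended its call. The Notch target Hes1 differed by 0.38, the receptor Notch2 by 0.11 and the ligand Jag1 by -0.15 on the log2 scale, and none of the 3 was called. There were 1 lower and 3 higher Notch genes at an unadjusted p under 0.05. DESeq2 and library size scaling each called 0 lower and 1 higher, and limma voom 1 lower and 1 higher.

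Of 20 tested Hippo and YAP genes, edgeR called 0, with a median of -0.10, and DESeq2 and limma voom called 0. There were 3 lower and 2 higher at an unadjusted p under 0.05. Without 21-month replicate 1, or without replicate 2, edgeR called 2. Yap1, the pathway's transcriptional coactivator, differed by -0.07 ± 0.10. Of 8 tested Sox genes other than Sox9, edgeR called 0, and at an unadjusted p under 0.05 there were 0 lower and 2 higher. DESeq2 and limma voom called 0. Sox6 was nearest the threshold, at 0.55 (edgeR adjusted p = 0.0512), and 1 Sox gene was called on leaving out 3-month replicate 2 or replicate 1 of 21 months. With the replicate block the Sox count was 2. Sox4, which acts beside Sox9 in bile duct formation, differed by -0.22 ± 0.31.

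Zbtb7c had 2.17, 2.93 and 3.57 CPM in 21-month livers, against 12.2, 12.3, 17.6 and 9.09 CPM in 3-month livers. The highest 3-month library was replicate 3 and the lowest replicate 4, which was 2.55 times the highest 21-month library. The level was 2.89 ± 0.702 CPM at 21 months (SD, n = 3) and 12.8 ± 3.53 CPM at 3 months (SD, n = 4), or 4.42-fold lower at 21 months (log2 fold change -2.14 ± 0.25, SE). The reads numbered 22, 21 and 30.0 at 21 months, against 67, 143, 87 and 56 at 3 months. Of 4 genes that overlap Zbtb7c in the RefSeq gene table, 1 had a row, 2900057B20Rik, with 0 reads in all 7 libraries. On log2(TPM + 1) the log2 fold change of Zbtb7c was -1.44.

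Its nearest relatives by name, Zbtb7a and Zbtb7b, were not called. Zbtb7a had 55.7, 63.8 and 52.4 CPM in 21-month livers, against 58.8, 54.9, 70.0 and 65.7 CPM in 3-month livers, and the ages overlapped (log2 fold change -0.12 ± 0.11, edgeR adjusted p = 0.550). Zbtb7b differed by -0.18 ± 0.10 (edgeR adjusted p = 0.289). Of 36 tested Zbtb genes, edgeR called 2 lower and 1 higher, with a median of -0.02. At an unadjusted p under 0.05 there were 9 lower and 1 higher. In 8 of the 36 the ages did not overlap with 21 months lower, against 2 with 21 months higher. Over all tested genes, 12.9% did not overlap with 21 months lower. The shares over all genes at an unadjusted p, and without overlap with 21 months higher, were not counted. DESeq2 called 1 lower and 1 higher, and limma voom 2 lower and 1 higher. Zbtb8a fell to 2.39 ± 0.922 CPM at 21 months (SD, n = 3), against 4.92 ± 0.820 CPM at 3 months (SD, n = 4). Zbtb40 was called lower, with an edgeR adjusted p of 0.0980 with the replicate block, and Zbtb22 was called higher. The count was 0 without 3-month replicate 2 or 4 or 21-month replicate 3, and 1 without 21-month replicate 2.

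Of 6 genes linked to Zbtb7c in earlier reports, as targets or as partners, edgeR called 3 higher and 0 lower, with a median of 0.42. Whether Zbtb7c acts on any of them in these livers was not tested. At an unadjusted p under 0.05 the counts were 3 higher and 0 lower, and DESeq2 and limma voom gave 3 higher and 0 lower. Srebf1, the master factor of fatty acid synthesis, rose to 626 ± 63.6 CPM at 21 months (SD, n = 3), against 418 ± 64.3 CPM at 3 months (SD, n = 4; edgeR adjusted p = 0.00736). Fasn, fatty acid synthase, rose to 1395 ± 102 CPM at 21 months (SD, n = 3), against 962 ± 186 CPM at 3 months (SD, n = 4; edgeR adjusted p = 0.0270). The third was G6pc, given above with the periportal genes. With the fragment-length covariate none of the 3 was called, but their log2 fold changes stayed near those of the main fit. They were 0.55 for Srebf1 (0.58 in the main fit), 0.57 for Fasn (0.54) and 0.54 for G6pc (0.56). Fasn missed the threshold when 3-month replicate 2 was left out (edgeR adjusted p = 0.0562). It also missed it on leaving out replicate 1 of 21 months (edgeR adjusted p = 0.0520) or replicate 3 (edgeR adjusted p = 0.0983). The other 3 genes were not called, with Cdkn1a, the p21 cell cycle inhibitor, at -0.41 ± 0.24, Pck1, of gluconeogenesis, at 0.30 ± 0.29 and Trp53 at 0.02 on the log2 scale.

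Mfap1b had 5.43, 6.01 and 4.83 CPM in 21-month livers, against 13.1, 17.6, 15.8 and 16.7 CPM in 3-month livers. Libraries of 1 age lay close together, and the lowest 3-month library was 2.19 times the highest 21-month library. The level was 5.42 ± 0.590 CPM at 21 months (SD, n = 3) and 15.8 ± 1.91 CPM at 3 months (SD, n = 4), or 2.93-fold lower at 21 months (log2 fold change -1.55 ± 0.17, SE). Among the 5 genes it had the smallest spread within an age, 0.17 on the log2 scale, and 30.0% of 2169 genes of similar level had a smaller one.

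Mouse carries a near-identical copy, Mfap1a, and reads that match both were divided between them by the authors' estimate. In none of the 7 libraries was the estimated count of either copy a whole number, whereas Gpr110 had whole counts in 7 of 7 and Cdh1, Zbtb7c and Sox9 in 6 of 7 (within 1e-09). The split between the copies is therefore uncertain. Mfap1a had 5.79, 3.61 and 5.52 TPM in 21-month livers, against 6.19, 6.73, 7.23 and 7.52 TPM in 3-month livers, with its highest 21-month library just below its lowest 3-month library. Its log2 fold change was -0.57 ± 0.19 (edgeR adjusted p = 0.0653). Without 21-month replicate 1 that adjusted p was 0.0199, and over all alternatives it ran to 0.232.

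Summed as reads, the copies do not depend on how shared reads were divided, and their sum was 13.5 ± 1.84 CPM at 21 months (SD, n = 3) and 28.1 ± 2.67 CPM at 3 months (SD, n = 4), or 2.07-fold lower at 21 months. In TPM, where the copies have different transcript lengths, the sum was 11.6, 10.6 and 11.1 TPM in 21-month livers, against 19.1, 26.3, 24.6 and 23.5 TPM in 3-month livers, so the ages did not overlap in the sum. The mean sum was 2.10-fold lower at 21 months, with 11.1 ± 0.485 TPM (SD, n = 3) and 23.4 ± 3.04 TPM at 3 months (SD, n = 4). Mfap1b supplied 50.04%, 66.0% and 50.2% of the sum at 21 months, against 67.7%, 74.4%, 70.6% and 68.0% at 3 months. The highest 21-month share, in replicate 2, came close to the lowest 3-month share.

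**Figure D3:**
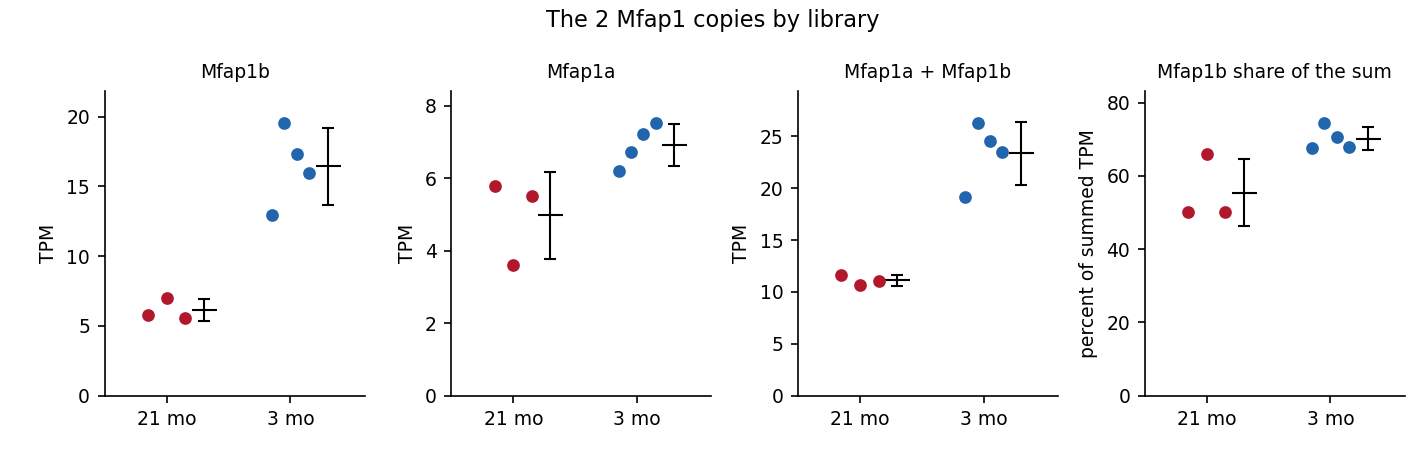
TPM of Mfap1b, of Mfap1a and of their sum, and the percent of the sum that came from Mfap1b (vertical axes, starting at 0), in each library with mean and SD; 21 months stands left of 3 months. The sum lies between 10.6 and 11.6 TPM at 21 months and between 19.1 and 26.3 TPM at 3 months, and the 21-month shares spread from 50.04% to 66.0%.

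The windows around the starts of the 2 copies are shown so that the 2 copies, both lower at 21 months in mean level, can be compared outside their transcripts. They are chr2:121473974-121474273 for Mfap1b and chr2:121506607-121506906 for Mfap1a, both on the minus strand, from RefSeq, build GRCm38.p6. Aligned over 307 columns they were identical in 261, or 85.0%, with 32 mismatches and 14 gap columns. Capitals mark CCGGAAG or its reverse complement CTTCCGG, letters of the kind bound by Ets factors, chosen after the windows were read and searched on both strands. Of all windows, 8.86% hold at least 1 match and 1.48% at least 2. Mfap1b has 2 matches and Mfap1a 1, and each window holds 13 CpG.
Mfap1b: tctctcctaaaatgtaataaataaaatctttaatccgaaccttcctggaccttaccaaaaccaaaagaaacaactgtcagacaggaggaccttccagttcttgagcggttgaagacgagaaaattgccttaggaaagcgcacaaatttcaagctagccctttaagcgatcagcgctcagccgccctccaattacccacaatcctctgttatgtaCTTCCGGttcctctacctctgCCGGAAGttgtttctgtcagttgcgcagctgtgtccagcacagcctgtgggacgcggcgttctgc
Mfap1a: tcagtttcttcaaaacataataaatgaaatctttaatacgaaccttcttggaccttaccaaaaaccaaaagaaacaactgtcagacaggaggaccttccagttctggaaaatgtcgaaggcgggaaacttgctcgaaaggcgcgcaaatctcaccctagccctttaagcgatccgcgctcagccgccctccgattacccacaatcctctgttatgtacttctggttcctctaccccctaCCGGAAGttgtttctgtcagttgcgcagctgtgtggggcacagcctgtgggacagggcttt

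Other genes of the spliceosomal B complex and of the U4/U6.U5 particle that joins it were lower more often than higher. Of 30 tested, Mfap1a among them, edgeR called 8 lower and 0 higher, and the median log2 fold change was -0.39, against -0.0015 over all tested genes. In 26 of the 30 the log2 fold change was negative, and in 16 all 21-month libraries lay below all 3-month libraries. Over all tested genes, 5.86% were called lower by edgeR, and 12.9% had every 21-month library below every 3-month library. DESeq2 and limma voom also called 8 lower and 0 higher. At an unadjusted p under 0.05, 17 were lower and 0 higher, and the share over all genes at that threshold was not counted. The summed CPM of the list was 706 to 743 at 21 months and 856 to 898 at 3 months. Prpf6, a scaffold of the particle, fell to 41.2 ± 1.79 CPM at 21 months (SD, n = 3), against 65.5 ± 3.67 CPM at 3 months (SD, n = 4; edgeR adjusted p = 0.000889).

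Ik, a B complex protein also called RED, fell to 35.1, 28.6 and 32.6 CPM in 21-month livers, against 51.3, 51.0, 54.6 and 55.7 CPM in 3-month livers (log2 fold change -0.72 ± 0.11, edgeR adjusted p = 0.000911). Prpf38a, which is known to contact MFAP1 in the human complex, fell to 4.04, 2.51 and 2.50 CPM at 21 months, against 6.39, 6.52, 8.29 and 6.17 CPM at 3 months (log2 fold change -1.14 ± 0.24, edgeR adjusted p = 0.00717). In both genes the ages did not overlap. Sart1, a protein of the particle, fell by 0.63 on the log2 scale (edgeR adjusted p = 0.0051). Smu1, the partner of Ik, differed by 0.09 ± 0.12 (edgeR adjusted p = 0.689). The count of 8 was 3 without 21-month replicate 3, 3 with the fragment-length covariate and 4 on either TPM scale. With the replicate block Prpf3 and Prpf4b were not called (edgeR adjusted p = 0.0902 and 0.0623), and no member of the list was called higher in any setting run.

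**Figure D4:**
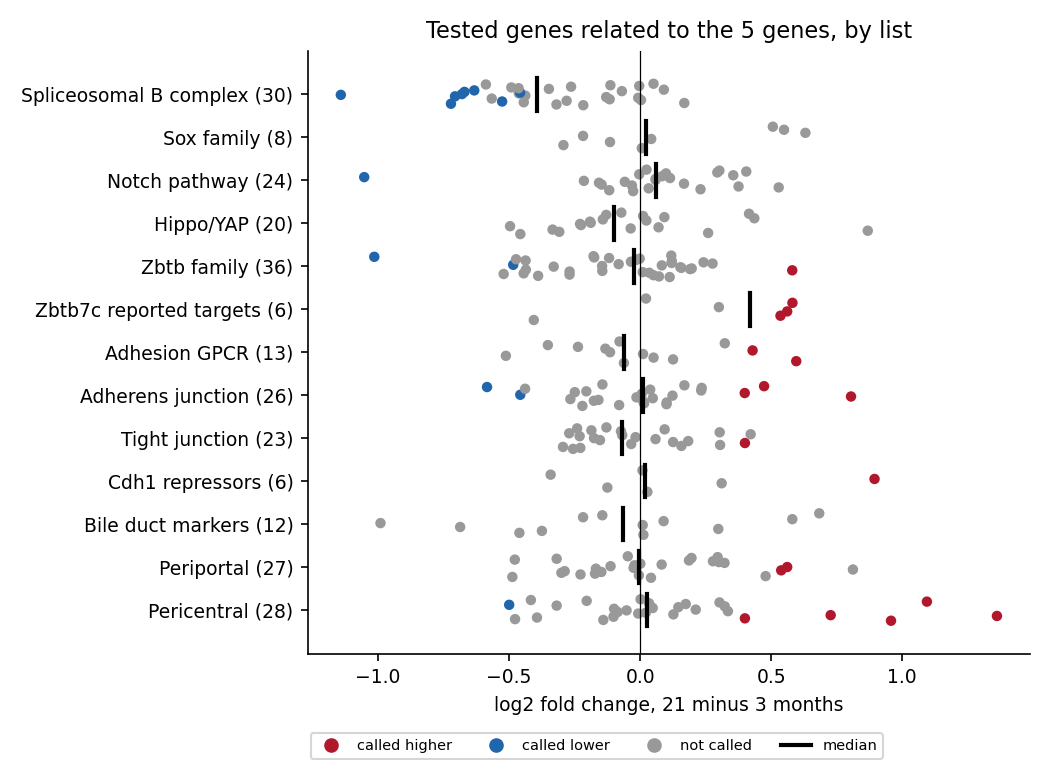
Log2 fold change (horizontal axis, 21 minus 3 months) of each tested gene of the lists related to the 5 genes, with the number tested in brackets; blue points were called lower and red points higher by edgeR, and the black line is the median. The spliceosomal B complex list has 8 blue points, no red point and a median of -0.39, while most other medians lie near 0.

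Across the 7 libraries, likeness between 2 genes was measured as the root mean square difference of their log2 CPM after centring, so 0 would be the same pattern. All 7 values include the age contrast on which the 5 genes were chosen, and the measure is a description. Zbtb7c lay at 0.45 from Mfap1b and at 0.45 from Gpr110, the closest pairs among the 5, and Sox9 lay farthest from Gpr110, at 0.87. The single gene nearest to Gpr110 (0.34), to Cdh1 (0.26) and to Zbtb7c (0.38) was 1700034P13Rik, a low-level transcript with 0.883 ± 0.310 CPM at 21 months (SD, n = 3) and 3.74 ± 0.613 CPM at 3 months (SD, n = 4). After it, Bhlha15, a transcription factor of secretory cells, was nearest to Gpr110 (0.38), the antiprotease Serpina1e to Cdh1 (0.27) and the cytochrome P450 Cyp2a4 to Zbtb7c (0.40). Nearest to Sox9 were Gemin5 (0.10), the cytokine receptor Lifr (0.12) and Vhl (0.12). Nearest to Mfap1b were Gm5088 (0.17), Upf3a (0.19), a factor of nonsense-mediated decay, and Zfp9 (0.19).

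Genes beside the 5 on the chromosome were read from the RefSeq gene table, build GRCm38.p6, with 2 positions on each side. Of the 20 positions, 7 had a row in the files and 3 had enough reads to test. Hypk, next to Mfap1b and known to act with the N-terminal acetyltransferase NatA, fell to 18.2, 13.0 and 13.9 CPM in 21-month livers, against 25.7, 24.9, 32.8 and 31.8 CPM in 3-month livers. The ages did not overlap (log2 fold change -0.92 ± 0.15, edgeR adjusted p = 0.00170), and the call held under all alternatives run. Tango6, next to Cdh1, differed by -0.53 ± 0.17 (edgeR adjusted p = 0.0555). Gpr116, next to Gpr110, is given above.

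**Figure D5:**
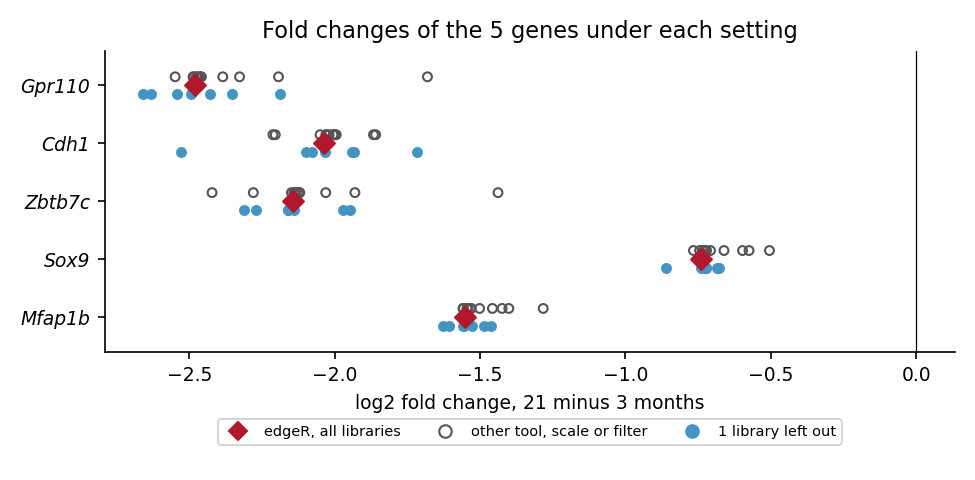
Log2 fold change (21 minus 3 months) of each of the 5 genes under the settings tried, including each library left out in turn. All values are below 0, and they run from -2.66 to -1.68 for Gpr110, from -2.53 to -1.72 for Cdh1, from -2.42 to -1.44 for Zbtb7c, from -1.63 to -1.28 for Mfap1b and from -0.86 to -0.50 for Sox9.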

How the data were processed

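Per the labels' protocols, total RNA was enriched for mRNA and made into strand-specific libraries by ligation of barcoded adapters and PCR. TopHat, RSEM, edgeR and mm9 are named per the submitters' processing notes; a version of each is not given in the sources used here. Per the file headers, the deposited tables give an expected count, a TPM, an FPKM (not used) and a transcript length for each gene. Expected counts were rounded and tested with edgeR 4.0.16 (quasi-likelihood, TMM scaling, R 4.3.3) on 11251 genes kept by its filter (minimum count 10, minimum total 15), with Benjamini-Hochberg adjustment at 0.05. DESeq2 1.42.0 and limma 3.58.1 were alternatives. The procedure was tested on simulated data. CPM values rest on depths where 3 reads are 0.257 to 0.607 CPM, and the ribosomal precursor Rn45s took 18.7% to 25.6% of reads. The 5 genes and all lists were chosen with earlier results of these data known. Named genes were the 5, fixed partners, up to 4 called genes per list with the smallest p, the 3 nearest patterns per gene and chromosome neighbours; others, such as Sox6 and the further called genes of a list, were named after their values were seen. The main edgeR fit had no block, and the replicate numbers, from the labels, entered as a block only in an alternative fit. Deviations of same-numbered libraries from their age means correlated at 0.107, 0.174 and 0.104. A pair with unlike numbers, 21-month replicate 1 and 3-month replicate 4, correlated at 0.159, so these values do not settle whether the numbers mark pairs. No pair of libraries of 1 age agreed within counting noise. Replicates 2 and 3 were the most alike at both ages. Their chi-square per degree of freedom was 4.37 at 3 months and 6.35 at 21 months. For the other pairs it was 10.6 to 20.7 and 16.7 to 21.4. The labels name no batch, and what this grouping marks was not tested. Windows were aligned with Biopython 1.88.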

Additional observations from a re-analysis of the deposited data

How the results depend on the processing

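The log2 fold changes of the 5 genes and of Mfap1a were below 0 under all alternatives run. The balance of calls over all genes, 659 lower and 615 higher, turned to 618 and 650 with RLE scaling, 466 and 566 with library size scaling, 534 and 599 with DESeq2, 598 and 692 without ribosomal RNA rows, 515 and 560 with the replicate block, 153 and 179 with the fragment-length covariate, 276 and 799 on log2(TPM + 0.1), 281 and 837 on log2(TPM + 1), 469 and 668 without 21-month replicate 2, and 250 and 330 without 21-month replicate 3. The Notch list, with 1 lower and 0 higher, gave 0 lower and 1 higher with library size scaling and with DESeq2, and 0 lower and 2 higher with a minimum of 5 CPM, on both TPM scales and without 21-month replicate 2. The adherens junction list, with 2 lower and 3 higher, gave 1 lower and 0 higher with the covariate and 2 lower and 1 higher without 3-month replicate 1 or 4. The 1274 genes that differed became 332 with the shortfall of effective length (RSEM's allowance for fragment length, smallest in 21-month replicate 3) as a covariate. The genes called per list under each alternative that moved a count were as follows. With that covariate there were 1 adherens junction, 0 tight junction, 1 periportal, 3 pericentral, 0 adhesion receptor, 0 Zbtb, 0 Zbtb7c-linked, 0 Notch and 3 spliceosome genes. RLE scaling gave 1 Sox and 2 Notch genes. Library size scaling gave 0 tight junction genes and 1 adhesion receptor. Without a filter there were 2 Notch genes, 1 Hippo gene, and Mfap1a at -0.57 with edgeR adjusted p = 0.0466. A minimum of 5 CPM gave 2 tight junction, 1 Sox and 2 Notch genes. DESeq2 gave 6 periportal genes, and limma voom 2 Notch genes. Removing ribosomal RNA rows gave 2 tight junction, 1 Sox and 3 Notch genes. The replicate block gave 0 tight junction, 5 periportal, 2 Sox and 4 pericentral genes. Both TPM scales gave 2 tight junction, 5 periportal, 1 adhesion receptor, 2 Notch and 4 spliceosome genes; log2(TPM + 1) put Gpr110 at -1.68, Zbtb7c at -1.44 and Mfap1b at -1.28.

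When each library was left out in turn, the genes that differed numbered 580 (without 21-month replicate 3) to 1642 (without 21-month replicate 1), with 773, 834 and 745 without 3-month replicates 2, 3 and 4. The list counts ran 2 to 4 for adherens junction, 0 to 1 for tight junction, 0 to 1 for bile duct, 2 to 3 for periportal, 3 to 7 for pericentral, 1 to 2 for adhesion receptors, 0 to 4 for Zbtb, 0 to 1 for Sox, 2 to 3 for Zbtb7c-linked genes, 0 to 2 for Notch, 0 to 2 for Hippo and 3 to 11 for spliceosome genes. The log2 fold change ran from -0.74 to -0.36 for Mfap1a, -2.66 to -2.19 for Gpr110, -2.53 to -1.72 for Cdh1, -2.31 to -1.95 for Zbtb7c, -0.86 to -0.68 for Sox9 and -1.63 to -1.46 for Mfap1b. The cause of these changes was not tested. The replicate block, in which 3-month replicate 4 carries no age information, called 1075 genes. Among the called genes of the lists it ended the calls of Cldn2, Pparg, Prpf3, Prpf4b, Pvrl3, Rnf43 and Zbtb40 and no others. A planned comparison of transcript lengths was not run, because each of the 5 genes has 1 transcript. Gpr110 and Zbtb7c rest on 15 to 30 reads per 21-month library, which limits their precision.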
